A study of Mus musculus with 10 samples.

Results

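The 9 melanoma lines recovered from tumours in mice were set against the cultured B16OVA line that the tumours had been started from. For each gene the log2 intensity of the parent array was taken from that of each line, and a gene was a member where all 9 lines lay on the same side of the parent. Of 16352 genes tested, 4234 (25.9%) were members: 2124 (13%) were higher and 2110 (12.9%) were lower than the parent in all 9 lines. Members were ordered by the smallest of their 9 differences. That smallest difference was at least 1 log2 unit, or 2-fold, for 5 higher genes (0.0306%) and 4 lower genes (0.0245%).

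B16 is a pigmented melanoma of C57BL/6 mice, and B16OVA carries ovalbumin (OVA) as a model antigen. All 10 RNAs came from lines of this C57BL/6 melanoma: the parent, 3 NIMM lines (1, 3 and 4) from tumours of naive B6 mice, 3 IMM lines (1, 2 and 8) from OVA-immunized B6 mice and 3 GKO-IMM lines (1, 2 and 3) from OVA-immunized mice that lack interferon-gamma (IFN-γ). The submitters put IMM, NIMM and GKO-IMM lines back into OVA-immunized mice, where the IMM lines grew progressively and the others did not. The labels give the source of every RNA as a cell line, while several descriptions speak of tumours, and the passage of a line, its time in culture after recovery and whether it is 1 clone is each not given in the sources used here.

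A tumour in a host meets conditions that a culture dish lacks. Parts of it run short of oxygen, which stabilises hypoxia-inducible factors and raises genes of glycolysis and blood vessel growth, and shortage of amino acids or misfolded protein raises genes of the integrated stress and unfolded protein responses through ATF4 and XBP1. Immune cells of the host release interferons, which raise antigen presentation genes and chemokines such as Cxcl10 in tumour cells. These are background facts and not results of these arrays.

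Each line had 1 Affymetrix mouse gene array, and array medians lay between 31.9 and 32.5 intensity units. With 1 parent array there is no test of the lines against the parent, so every such difference is a description, and any error of the parent array enters all 9 differences alike. Growth in a host, recovery and later culture of the lines, and whatever was particular to the parent array or its RNA cannot be told apart. The SD that follows a mean difference is the SD over the 9 lines and leaves out any spread of the parent. Nor can fewer cells of a kind be told from less RNA per cell. The files give no detection flag, and a gene dim in the parent has a fold that depends on the background level assumed. A test was possible among the 3 groups of 3 lines, which uses no parent value. The labels name the lines one by one without saying more, so its p-values measure the spread between these lines.

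The number of members dropped steeply with size. All 9 lines were higher by at least 0.5 log2 unit (1.41-fold) for 44 genes (0.269%) and lower by at least 0.5 for 17 genes (0.104%). At a threshold of 1.5 the counts were 1 and 0. Higher and lower genes were thus nearly equal in number when size is left aside, and parted most at 0.5. The SD over genes of the difference between the parent and a line was 0.17 for NIMM 1 and NIMM 3, 0.21 to 0.24 for IMM and GKO-IMM lines, and 0.26 for NIMM 4. Between pairs of lines it ran from 0.12 to 0.25, so NIMM 1 and NIMM 3 were as near to the parent as many lines were to each other.

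**Figure D1:**
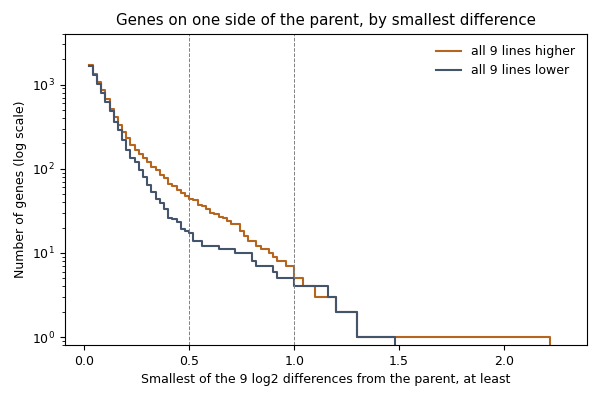
Number of genes (log scale) whose 9 lines all lay above or all below the parent by at least the log2 difference on the horizontal axis, for the 16352 genes tested. The curves lie close together at small differences; at 0.5 they stand at 44 higher and 17 lower genes, and at 1 at 5 and 4 (dashed lines).

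Gsta4, a glutathione transferase that clears reactive aldehydes from oxidised lipids, lay farthest from the parent. Its intensity was 57.6 in the parent and 269 to 649.9 with a median of 365 in the lines, a mean log2 difference of 2.73 ± 0.45 (SD, n = 9) or 6.64-fold. Every line stood at least 4.66-fold above the parent. The IMM lines were highest, with 649.9, 519 and 480.4, then the NIMM lines with 328, 365 and 423, and then the GKO-IMM lines with 297, 269 and 269.

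Cxcl10, an interferon-induced chemokine that draws T and NK cells through the receptor CXCR3, came next. The parent had 48.3 and the lines 119 to 488 with a median of 176, with a mean difference of 2.02 ± 0.68 and a smallest of 1.30. The lines varied widely within groups: NIMM 1 and NIMM 3 had 119 and 119 and NIMM 4 had 335, while IMM 2 had 488. Pdgfrb, a receptor for platelet-derived growth factor (gene on mouse chromosome 18), had 43.8 in the parent and 100.5 to 155 with a median of 120.4 in the lines (mean difference 1.48 ± 0.18). Pericytes and fibroblasts also make Pdgfrb, and the whole list of their markers is given with those of other host cells. Slc44a3, of the choline transporter-like family, had 41.5 in the parent and 88.4 to 329 with a median of 144 in the lines (mean 1.88 ± 0.69). Gbgt1 encodes a glycosyltransferase of the globoside series of glycolipids. It had 45.9 in the parent and 93.6 to 148 with a median of 122 in the lines (mean 1.42 ± 0.20).

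All 5 of these genes were dim in the parent, with intensities of 41.5 to 57.6 against an array median of 32.1. Their folds therefore move with the background that is assumed. With 15 subtracted from all intensities 16 genes stood at least 1 above the parent and 7 at least 1 below, and with 48 added 1 and 1 did.

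The genes just outside the threshold of 1 differed little from those inside it. Slc44a3 (1.09), Gbgt1 (1.03) and Pdgfrb (1.20) were the nearest inside by smallest difference. Tinagl1, a secreted basement membrane protein (0.99), Fkbp10, a prolyl isomerase that assists collagen folding in the endoplasmic reticulum (0.98), and Arl11, a small ARF-like GTPase (0.94), were the nearest outside. Fkbp10 had 66.6 in the parent and 132 to 172 with a median of 149.5 in the lines, and its 9 differences were closely alike (mean 1.17 ± 0.13). Tinagl1, brighter in the parent at 175, reached 348 to 582 with a median of 480.1 in the lines (mean 1.40 ± 0.26).

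A further 7 genes complete the 15 with the largest smallest difference above the parent. Myadm, a membrane protein found in many blood and other cells, had 278 in the parent and 511 to 693 with a median of 628 in the lines. Spp1, osteopontin, a secreted phosphoprotein that binds integrins, had 50.1 in the parent and 92.4 to 285 with a median of 136 in the lines, where IMM 1 was the highest. Dock10, a guanine nucleotide exchange factor, had 91.2 and 155 to 215 with a median of 185. The others were Olfml1, a secreted olfactomedin-domain protein (smallest difference 0.91), Arsg, a lysosomal sulfatase (0.83), Akr1b8, an aldo-keto reductase (0.81), and Jup, plakoglobin of cell junctions (0.77). Olfml1 was near the array median in the parent, at 27.6.

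The other genes at least 0.5 above the parent, all given here, fell into several roles. Surface receptors and adhesion proteins among them were Il13ra1, a receptor chain for interleukin-13 (smallest difference 0.73), Ly75, an endocytic receptor (0.69), F11r, a junctional adhesion molecule (0.65), Bcam, a laminin-binding adhesion molecule (0.58), and Itgb2, the leukocyte integrin β2 chain (0.51). Itgb2 had 67.3 in the parent and 96.1 to 162 in the lines. Transporters and lipid enzymes were Abcc2, an efflux pump (0.73), Abca12, a lipid transporter (0.67), Pla2g5, a secreted phospholipase (0.53), Mboat2, an acyltransferase (0.53), and Tmem144, a membrane protein (0.58). Secreted proteins and enzymes were Vwf, von Willebrand factor (0.66), the peptide hormone Cck (0.57), and Cpq, a carboxypeptidase (0.62). The rest were Gca, a calcium-binding protein (0.75), Selenbp1, a selenium-binding protein (0.70), Pygo1, a Wnt coactivator (0.63), Coq8a, of coenzyme Q synthesis (0.51), Plp2 (0.53), Pbxip1 (0.53), Prelid2 (0.64), Tmem116 (0.52) and the predicted genes Gm10768 (0.81) and 4930455G09Rik (0.74). Cpq (24.0) and Gca (24.8) lay below the filter of 26.6 in the parent and passed only through the lines, so the sizes of their differences are not well measured. Dusp6, Pdk1, Chac1, Bnip3, Tgfb2 and Car9 also reached 0.5 and are described with their pathways.

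**Figure D2:**
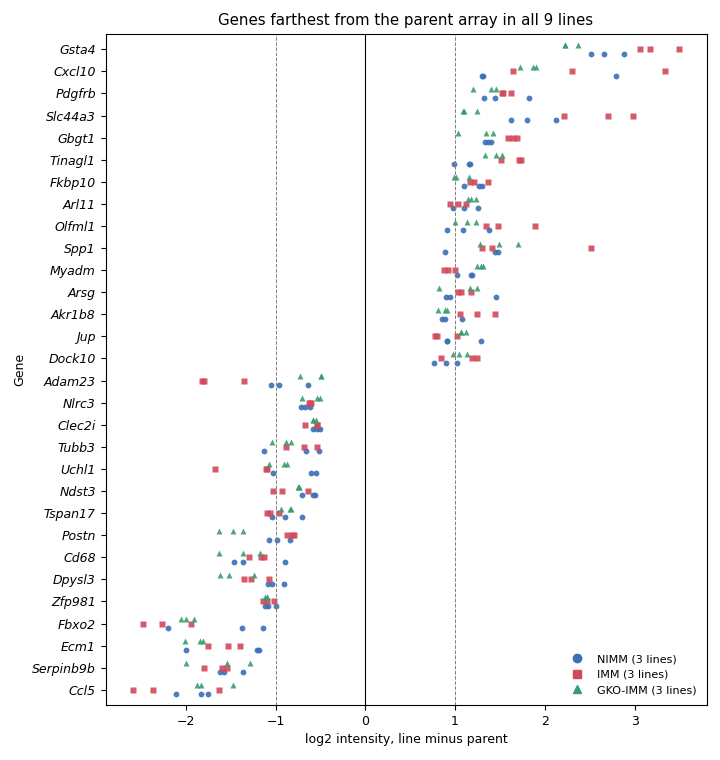
Log2 intensity of each line minus the parent for the 15 named genes farthest above and the 15 farthest below the parent in all 9 lines, with NIMM lines as circles, IMM lines as squares and GKO-IMM lines as triangles. All points of a gene lie on the same side of 0; Gsta4 stands apart with a smallest difference of 2.22, and dashed lines mark 1 log2 unit.

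Ccl5, a chemokine that attracts T cells and monocytes, was the gene farthest below the parent. It had 485 in the parent and 80.6 to 175 with a median of 136 in the lines, a mean difference of -1.94 ± 0.35 (SD, n = 9). Of the chemokines, Ccl5 and Cxcl10 thus lay far from the parent in opposite directions. Serpinb9b, an intracellular serine protease inhibitor of clade B, had 219 in the parent and 54.6 to 89.8 with a median of 73.3 in the lines (mean -1.59 ± 0.21). A second transcript cluster of Serpinb9b lay below the filter, where a difference cannot be read, and clade B serpins have close copies that may share probes. Ecm1, a secreted matrix glycoprotein, had 387 in the parent and 96.3 to 170.1 with a median of 114 in the lines (mean -1.64 ± 0.32). Fbxo2, an F-box protein that marks misfolded glycoproteins for degradation, had 423 and 76.3 to 192 with a median of 106 (mean -1.93 ± 0.42). Unlike the higher genes, these 4 were well above the array median in the parent.

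Of the genes just outside -1, Zfp981 (named Gm13247 on the array) had 44.4 in the parent and 20.1 to 22.3 in the lines. All 9 lines lay below the filter of 26.6, so the gene passed it only through the parent and the size of its difference (mean -1.08 ± 0.049) is not well measured. It is uncertain which copy this is, since zinc finger genes of this kind lie in groups of close copies. Dpysl3, a cytoskeletal protein of growing neurites on mouse chromosome 18, had 273 and 88.7 to 145 with a median of 116 (mean -1.23 ± 0.23), while a second cluster differed by 0.14. Cd68, a lysosomal membrane protein abundant in macrophages and present in other cells, had 146 and 47.2 to 78.3 with a median of 59.5 (mean -1.27 ± 0.21).

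The 15 farthest below the parent also held Tubb3, Uchl1 and Adam23. Tubb3, a neuronal β-tubulin, had 629.7 in the parent and 287 to 439.8 with a median of 355 in the lines. Uchl1, a ubiquitin hydrolase of neurons, had 264 and 82.8 to 181 with a median of 130.0, although its second, dimmer cluster differed by -0.0008. Adam23, a surface protein without protease activity that binds integrins, had 281 and 79.8 to 199.8 with a median of 145. The list of synaptic and neural adhesion genes as a whole was divided, with 5 of 29 higher and 6 lower in all 9 lines. Over all genes these shares were 13% and 12.9%. Higher members of the list included the netrin receptors Unc5c (mean difference 0.43 ± 0.093) and Unc5b (0.59 ± 0.35). The others of the 15 were Postn (smallest difference -0.80), Tspan17, a tetraspanin (-0.71), Ndst3, a heparan sulfate sulfotransferase (-0.56), Clec2i, a C-type lectin-related protein (-0.51), and Nlrc3, a NOD-like receptor (-0.50).

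Genes of hypoxia and glycolysis lay above the parent together. Of the 39 tested, 24 (61.5%) were higher in all 9 lines, against 13% of all genes, and 0 were lower. The median of their mean differences was 0.48, against 0.0028 over all genes. Promoters of 4 members are shown because their letters carry the core that hypoxia-inducible factors bind, ACGTG or GCGTG, searched on both strands. Each sequence is the 250 bases before a start listed in the RefSeq promoter table for GRCm38.p6, read 5′ to 3′ on the gene's strand, with matches in capitals.
Car9, chr4:43506776-43507025, plus strand: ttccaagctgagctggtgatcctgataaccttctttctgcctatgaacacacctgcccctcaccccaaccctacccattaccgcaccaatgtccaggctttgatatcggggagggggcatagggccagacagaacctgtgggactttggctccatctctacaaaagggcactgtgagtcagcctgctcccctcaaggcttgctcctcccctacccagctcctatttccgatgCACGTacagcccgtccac
Bnip3, chr7:138909507-138909756, minus strand: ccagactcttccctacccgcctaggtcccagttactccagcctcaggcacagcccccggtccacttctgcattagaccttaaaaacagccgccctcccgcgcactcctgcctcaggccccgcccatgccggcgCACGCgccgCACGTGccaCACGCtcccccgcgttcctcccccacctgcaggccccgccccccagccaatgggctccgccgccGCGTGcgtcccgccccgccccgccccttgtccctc
Pdk1, chr2:71872974-71873223, plus strand, before 1 of 2 listed starts: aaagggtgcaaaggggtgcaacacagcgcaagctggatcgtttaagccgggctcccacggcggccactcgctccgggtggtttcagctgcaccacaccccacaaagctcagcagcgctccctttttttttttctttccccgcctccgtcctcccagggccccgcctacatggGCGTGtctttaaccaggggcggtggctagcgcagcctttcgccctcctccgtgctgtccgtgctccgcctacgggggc
Slc2a1, chr4:119108495-119108744, plus strand: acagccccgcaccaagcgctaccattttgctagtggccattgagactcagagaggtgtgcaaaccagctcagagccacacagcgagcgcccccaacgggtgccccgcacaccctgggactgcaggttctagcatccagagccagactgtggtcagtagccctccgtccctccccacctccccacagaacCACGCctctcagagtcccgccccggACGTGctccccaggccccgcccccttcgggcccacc
The core stood in 31 of the 35 listed genes with a promoter in the table (88.6%) and in 56.7% of the promoters of all 12170 genes tested that had one. It stood in 21 of 22 members higher in all 9 lines. The core holds a CG pair, promoters were not matched for base composition, and within CACGTG, as in Bnip3, it overlaps the E-box. For Pdk1 the gene record begins a few bases upstream of the listed start, so the window runs slightly into it. A match is a description of these letters and not a site.

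Car9, a carbonic anhydrase that cells make under low oxygen, had 49.5 in the parent and 72.7 to 239 with a median of 126 in the lines (mean difference 1.42 ± 0.56, SD, n = 9). Bnip3, a mitochondrial protein of mitophagy, had 138 and 207 to 596 with a median of 332 (mean 1.29 ± 0.53). Pdk1, the kinase that turns pyruvate away from mitochondria, had 108 and 178 to 395 with a median of 243 (mean 1.21 ± 0.41). These 3 were higher by at least 0.5 in every line, with IMM 2 the lowest line for each.

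Slc2a1, the glucose transporter GLUT1, had 672 in the parent and 934 to 1497 with a median of 1125 in the lines. A second, dimmer cluster of Slc2a1 differed by 0.043 on average, and that of Pdk1 lay below the filter. Vegfa, the main growth factor of blood vessels, had 191 in the parent and 222 in IMM 2 but 364 to 663 in the other 8 lines. Of the glycolytic enzymes, the hexokinase Hk2 (mean 0.90 ± 0.28) and the phosphofructokinases Pfkl (0.80 ± 0.26) and Pfkp (0.68 ± 0.28) were higher in all 9 lines. So were Tpi1 (0.38 ± 0.15), Ldha (0.20 ± 0.13) and Pgk1 (0.17 ± 0.093), while Gapdh, Pkm, Hk1 and Gpi1 were not on one side in all 9 lines.

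The collagen hydroxylases P4ha1 (0.73 ± 0.23), P4ha2 (0.72 ± 0.24) and Plod2 (0.69 ± 0.29) and the oxygen sensor Egln1 (0.72 ± 0.36) were also higher in all 9 lines. Epas1, which encodes HIF-2α, differed by 0.69 ± 0.28 and Hif1a by 0.18 ± 0.093. The list median differed between lines, from 0.19 in IMM 2 and 0.23 in GKO-IMM 3 to 0.60 in IMM 1 and 0.71 in IMM 8. The spread within the IMM group was thus as wide as that over all lines, and no gene of this list passed the test among groups (lowest adjusted p 0.129, for Epas1, limma F test).

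**Figure D3:**
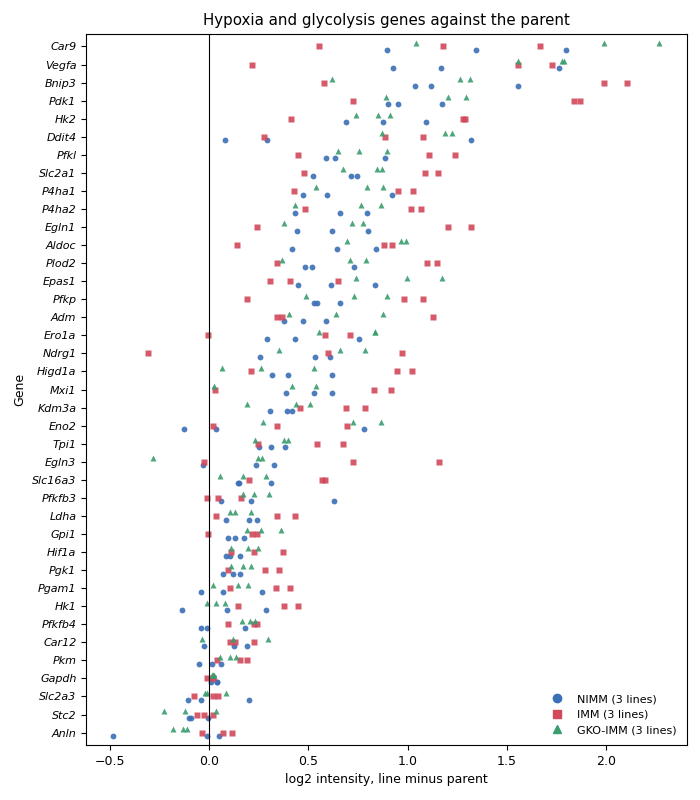
Log2 intensity of each line minus the parent for the 39 hypoxia and glycolysis genes tested, ordered by mean difference, with NIMM lines as circles, IMM lines as squares and GKO-IMM lines as triangles. For 24 genes all points lie above 0, with Car9, Vegfa, Bnip3 and Pdk1 the farthest by mean; for 0 genes do all lie below 0.

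No gene listed for the unfolded protein or integrated stress response was lower in all 9 lines. Of 35 tested, 16 were higher in all 9 (45.7%), and the list median was 0.52. Over all genes 13% were higher and 12.9% lower in all 9 lines. The promoter of Chac1 is shown because it holds the core of the amino acid response element that ATF4 binds, TGATGNAA, searched on both strands and here on the opposite strand, in capitals. It spans the 250 bases before the gene start (GRCm38.p6, RefSeq).
Chac1, chr2:119350992-119351241, plus strand: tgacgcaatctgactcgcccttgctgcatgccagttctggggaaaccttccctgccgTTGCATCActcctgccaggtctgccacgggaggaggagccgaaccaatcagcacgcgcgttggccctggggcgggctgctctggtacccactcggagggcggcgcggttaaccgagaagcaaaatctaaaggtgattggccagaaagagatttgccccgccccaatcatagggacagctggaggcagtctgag
This core stood in 7 of 31 listed genes with a promoter (22.6%) and in 2.64% of the promoters of all genes.

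Chac1, which breaks down glutathione, had 48.9 in the parent and 74.1 to 455 in the lines. NIMM 4 (405) and the GKO-IMM lines (455, 396 and 437) were high, and NIMM 1, NIMM 3 and the IMM lines lay between 74.1 and 121. Trib3, a pseudokinase that feeds back on ATF4, had 53.4 in the parent and was high in the same 4 lines, with 753 in NIMM 4, 459 to 490.1 in GKO-IMM lines and 68.7 to 178 elsewhere. Atf4 itself had 273 in the parent, 276 in NIMM 1 and 855 in NIMM 4. So a large part of this list's shift sits in 4 lines. The list median was 1.15 in NIMM 4 and 0.79 to 0.86 in GKO-IMM lines but 0.09 to 0.27 in the other lines. Without NIMM 4 it was 0.45, with 16 genes higher in all remaining lines, a count that leaving out a line cannot lower.

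Of the list's genes that act at the endoplasmic reticulum, 4 are given here. Xbp1, the transcription factor spliced by IRE1, had 403 in the parent and 557 to 849 with a median of 595 in the lines (mean 0.63 ± 0.20). Sdf2l1, a chaperone-associated protein, had 279 and 376 to 631 with a median of 425 (mean 0.64 ± 0.22), and the chaperone Hspa5 differed by 0.47 ± 0.16. Herpud1, of degradation at the endoplasmic reticulum, differed by 1.15 ± 0.65, a wider spread than those of Xbp1, Sdf2l1 and Hspa5.

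Aminoacyl-tRNA synthetases, which charge transfer RNAs and include targets of ATF4, showed the same split of lines. Of 18, 7 were higher and 1 was lower in all 9 lines, against 13% and 12.9% of all genes. Cars, the cysteine enzyme, had 181 in the parent and 219 to 468 with a median of 309 in the lines (mean 0.84 ± 0.44), and Iars, the isoleucine enzyme, had 993 and 1132 to 2079 with a median of 1636 (mean 0.73 ± 0.32). Nars (0.61 ± 0.36) and Yars (0.42 ± 0.27) differed less. The list median was 0.67 in NIMM 4 and 0.52 to 0.54 in GKO-IMM lines, and 0.01 to 0.20 in the others.

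Cholesterol synthesis was the list with the highest share of members on one side. Of 24 genes, 17 (70.8%) were higher in all 9 lines and 1, Pmvk, was lower (-0.23 ± 0.13), against 13% and 12.9% of all genes. The differences were modest, with a list median of 0.38 and line medians from 0.19 in IMM 2 to 0.59 in GKO-IMM 2. Lss, which closes the ring of lanosterol, had 241 in the parent and 299 to 502 with a median of 377 in the lines (mean 0.74 ± 0.28). Msmo1 (Sc4mol on the array), a sterol methyl oxidase, differed by 0.54 ± 0.20 and Dhcr7, a sterol reductase, by 0.41 ± 0.10. The regulator Srebf2 (0.38 ± 0.11) was also higher in all 9 lines. The letters TCACNCCAC, a core of the sterol regulatory element, stood in 1 of 16 listed promoters and in 1.28% of all promoters.

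Other lipid genes were divided, with 6 of 30 higher and 7 lower, against 13% and 12.9% of all genes. Scd1, the desaturase of fatty acid synthesis, had 702 in the parent and 798 to 1179 with a median of 966 in the lines (mean 0.48 ± 0.20). Cpt1a, which brings fatty acids into mitochondria, had 438 and 168 to 319.7 with a median of 249 (mean -0.91 ± 0.35), and Acadvl, an acyl-CoA dehydrogenase, differed by -0.40 ± 0.10. Fabp5, a fatty acid binding protein, differed by -0.48 ± 0.17, and its 3 transcript clusters gave like values.

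**Figure D4:**
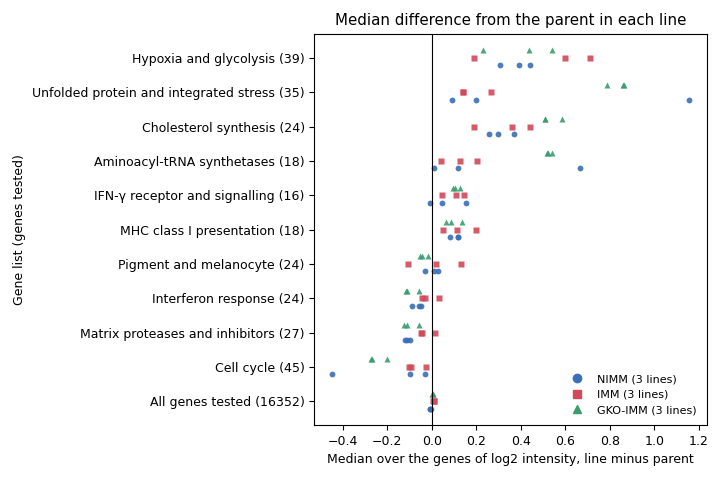
Median over the genes of a list of log2 intensity, line minus parent, with 1 point per line (NIMM circles, IMM squares, GKO-IMM triangles) and the number of genes tested in brackets. Hypoxia, stress and cholesterol lists lie above 0 in every line, the cell cycle list below 0 in every line, and the median of all 16352 genes between -0.0084 and 0.012.

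Cell cycle genes lay below the parent. Of 45, 17 (37.8%) were lower in all 9 lines, against 12.9% of all genes, and 1 was higher. Tk1, a thymidine kinase of S phase, had 861 in the parent and 409.8 to 742 with a median of 636 in the lines (mean -0.51 ± 0.29). Rrm2, a subunit of ribonucleotide reductase, had 1362 and 773 to 1223 with a median of 1086 (mean -0.40 ± 0.24). The higher gene was Cdkn1b, the kinase inhibitor p27, which restrains the cycle: 296 in the parent and 352 to 583 with a median of 466 in the lines. Cdkn2a, another inhibitor locus, was dim and slightly lower (47.9 against 39.1 to 43.8). The list median was -0.45 in NIMM 4 and -0.27 to -0.20 in GKO-IMM lines and -0.10 to -0.027 in the others. The 4 lines with the highest stress medians thus had the lowest cell cycle medians, and how far the one bears on the other was not tested. How dense or how fast each culture grew when its RNA was taken is not given in the sources used here.

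Of p53 targets and apoptosis genes 0 of 32 were higher and 5 were lower in all 9 lines, with small differences: Sesn1, a stress-induced p53 target, -0.31 ± 0.069, Birc5, survivin, -0.29 ± 0.15, and Tigar -0.24 ± 0.051. Trp53 and Myc were not on one side in all 9 lines. Of MAPK output genes 9 of 30 were higher and 2 lower. Dusp6, the phosphatase that feeds back on ERK, had 678 in the parent and 1147 to 1431 with a median of 1302 in the lines, a narrow spread (mean 0.92 ± 0.11), while its second cluster lay below the filter. Spry4, an inhibitor of the same pathway (0.45 ± 0.13), and the immediate early gene Egr1 (0.35 ± 0.11) were higher by less. Of NF-κB genes 5 of 20 were higher and 1 was lower. Beside all of these counts stand 13% of all genes higher and 12.9% lower in all 9 lines. Relb (0.52 ± 0.32) and Nfkb2 (0.50 ± 0.31), the subunits of the non-canonical pathway, lay above the parent.

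Immune genes gave a mixed picture apart from the chemokines named above. The promoter of Cxcl10 is shown with its interferon-stimulated response core (GAAA, any 2 bases, GAAA, searched on both strands) in capitals (250 bases before the gene start, GRCm38.p6, RefSeq).
Cxcl10, chr5:92348890-92349139, minus strand: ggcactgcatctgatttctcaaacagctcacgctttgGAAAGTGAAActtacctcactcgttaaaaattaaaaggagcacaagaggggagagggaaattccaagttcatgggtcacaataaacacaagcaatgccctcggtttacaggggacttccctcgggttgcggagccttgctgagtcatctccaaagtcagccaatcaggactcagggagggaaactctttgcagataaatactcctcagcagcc
This core stood in 8 of 19 promoters of the interferon response list and in 2.81% of all promoters. The list did not follow Cxcl10. Of 24 genes, 3 were higher and 5 lower in all 9 lines, against 13% and 12.9% of all genes. The list median was -0.053. Irgm1, an immunity-related GTPase, had 73.9 in the parent and 42.6 to 58.6 in the lines (mean -0.56 ± 0.14), and Xaf1 differed by -0.47 ± 0.089. Bst2, tetherin, lay above the parent (0.37 ± 0.13).

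Of the IFN-γ receptor and signalling genes 4 of 16 were higher and 2 lower, against 13% and 12.9% of all genes. Ifngr1, the receptor's ligand-binding chain, had 195 in the parent and 220.0 to 276 with a median of 245 in the lines (mean 0.35 ± 0.11). Stat2, of type I interferon signalling, differed by 0.33 ± 0.13 and the phosphatase Ptpn2 by 0.24 ± 0.087. Jak1 was lower by a little (-0.074 ± 0.029), and Jak2 and Irf1 were not on one side in all 9 lines. These differences were small beside those of Gsta4 or Ccl5.

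For antigen presentation by MHC class I, 7 of 18 genes were higher and 2 lower in all 9 lines (all genes 13% and 12.9%). H2-K1, a classical class I heavy chain, had 57.9 in the parent and 62.7 to 108 with a median of 85.5 in the lines (mean 0.52 ± 0.29); class I genes resemble each other closely, so its probes may report copies. Tap1, a chain of the peptide transporter, had 58.6 and 64.4 to 86.1 with a median of 71.7 (mean 0.29 ± 0.14). The peptidase Erap1 (0.36 ± 0.11), the light chain B2m (0.14 ± 0.062) and the chaperone Calr (0.50 ± 0.088) were higher, and Tapbp, tapasin, was lower (-0.36 ± 0.12), although its second cluster differed by 0.13. Calr, Canx and Pdia3 of this list are also general chaperones of the endoplasmic reticulum.

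Among checkpoint ligands and suppressive factors 5 of 23 were higher and 3 lower, against 13% and 12.9% of all genes. Tgfb2, a TGF-β ligand, had 44.6 in the parent and 66.1 to 88.8 with a median of 73.0 in the lines (mean 0.73 ± 0.12). Ulbp1, a ligand of the NK cell receptor NKG2D (0.54 ± 0.21), and the costimulatory ligand Cd80 (0.43 ± 0.14) were dim and slightly higher, and Lgals1, galectin-1, was bright and lower (-0.27 ± 0.069). Cd274, which encodes PD-L1, had 145 in the parent and 113 to 190.0 in the lines, on both sides of it. Of 25 genes in the chemokine and cytokine list, 4 were higher and 1, Ccl5, was lower. Cxcl10 is not in this list, since it was counted with the interferon response. Beyond Spp1 the higher genes of this list differed little, as with Mif (0.16 ± 0.064) and Lif (0.18 ± 0.046).

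Genes of the matrix and of growth factor signalling were divided. In the matrix and adhesion list 8 of 40 were higher and 6 lower, against 13% and 12.9% of all genes. Tinagl1 and the integrin chain Itga5 (0.35 ± 0.10) lay above the parent and Postn and Itga6 (-0.32 ± 0.11) below. Of matrix proteases and their inhibitors 10 of 27 were lower (37%, against 12.9% of all genes) and 6 higher. The lower ones included the secreted plasminogen activator Plat (-0.61 ± 0.32), the cathepsin Ctsb (-0.28 ± 0.082) and the membrane protease Mmp14 (-0.19 ± 0.064). Timp1, an inhibitor of metalloproteinases, had 27.6 in the parent and 37.8 to 67.5 with a median of 41.5 in the lines. Adam12, a metalloproteinase (0.74 ± 0.23), and the collagen-degrading cathepsin Ctsk (0.55 ± 0.14) were also dim and higher. At 25.7 in the parent Ctsk lay below the filter and passed only through the lines, so the size of its difference is not well measured.

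In the receptor tyrosine kinase list 11 of 42 were higher and 8 lower in all 9 lines (all genes 13% and 12.9%). Beside Pdgfrb, the ephrin receptor Epha3 had 778 in the parent and 951 to 1313 with a median of 1068 in the lines. Axl, a receptor tied to dedifferentiated melanoma, was lower (-0.41 ± 0.17), and so was Tgfa, a ligand of the EGF receptor (-0.54 ± 0.21). Of TGF-β and BMP genes 7 of 30 were higher and 4 lower, against 13% and 12.9% of all genes. The receptor Tgfbr1 was higher by 0.20 ± 0.075 and its repressor Skil by 0.22 ± 0.07. Of Wnt and Notch genes 8 of 34 were higher and 5 lower, beside those same shares of all genes. Higher was the coreceptor Lrp6 (0.34 ± 0.13), although its second, dimmer cluster differed by 0.050 and was not on one side in all 9 lines. Lower was the dim inhibitor Dkk1 (-0.22 ± 0.042).

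The pigment list lay near the parent by its median (-0.0061), though not every gene in it did. Tyrp1, an enzyme of melanin synthesis, had 6233 in the parent and 6041 to 6280.4 with a median of 6222 in the lines, and Dct had 7742 and 7391 to 8362. Tyr, the rate-limiting enzyme, spread more widely, with 1189 in the parent and 962 in NIMM 4 to 1504 in IMM 1. Neither these genes nor Pmel, Mlana or Mitf were on one side in all 9 lines. Some pigment genes spread widely around the parent. Oca2 had 528 in the parent and 261 to 726 in the lines, and Kit had 451 and 314 to 714. Slc24a4 had 245 in the parent and 234 to 568 in the lines. Of 24 pigment genes 3 were higher and 4 lower, against 13% and 12.9% of all genes. Those on one side all differed by little: Pax3 by 0.15 ± 0.046, Gpnmb by -0.12 ± 0.023, Tfap2a by -0.22 ± 0.087 and Mlph, of melanosome transport, by -0.28 ± 0.15. In the dedifferentiation list 5 of 21 were lower, among them Axl, Vim (-0.24 ± 0.068) and Cdh2 (-0.16 ± 0.059), and 1 was higher, Sox9, a transcription factor of neural crest and cartilage (136 in the parent, 156 to 282 with a median of 258 in the lines).

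Antioxidant genes did not follow Gsta4. Of the NRF2 and antioxidant list 4 of 31 were higher and 8 lower, against 13% and 12.9% of all genes. Nqo1, a quinone reductase and classical NRF2 target, was below the filter at 25.9 in the parent and reached 34.2 to 86.8 with a median of 47.9 in the lines. The glutathione peroxidases Gpx1 (461 against 265 to 397) and Gpx4 (305 against 195 to 248) lay below the parent in every line. Of the heat shock list 2 of 20 were higher and 2 lower. Cryab, a small heat shock protein, had 1984 in the parent and 1098 to 1478 with a median of 1159.6 in the lines (mean -0.71 ± 0.14), and its second cluster differed by -0.85.

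Housekeeping groups stayed near the parent. The counts in each group below stand beside 13% of all genes higher and 12.9% lower in all 9 lines. Of ribosomal protein genes 7 of 35 were lower and 1 was higher, and of oxidative phosphorylation genes 5 of 34 were lower and 3 higher, with the named Atp5b at 0.10 ± 0.033 and Cyc1 at -0.14 ± 0.072. Rplp0 (-0.49 ± 0.16) was among the lower ribosomal members, and such genes have many processed copies that can share probes. Of lysosome and autophagy genes 4 of 35 were higher and 4 lower, with the cathepsins Ctsh (-0.38 ± 0.13) and Ctsb below and Ctsl (0.29 ± 0.18) above the parent. Of metallothionein, heme and iron genes 3 of 22 were higher and 1 lower, all by 0.25 or less on average.

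Small RNA genes were seldom far from the parent. Of 171 microRNA genes 9 were higher and 22 lower in all 9 lines, against 13% and 12.9% of all genes. Neither share was larger than that of all genes, and 1 microRNA gene was lower by at least 0.5. That one, Mir3473c, had 53.9 in the parent and 24.1 to 34.7 with a median of 27.8 in the lines (mean -0.93 ± 0.19), some of them below the filter. Its mature sequence is given, with the seed (bases 2 to 8) in capitals, as the only microRNA past 0.5 (RefSeq, GRCm38.p6, chr1:191998602-191998623, minus strand).
mmu-miR-3473c: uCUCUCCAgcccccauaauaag
Array probes of this kind can read the precursor or a host transcript, so the value need not be that of the mature form. Mir1946a (-0.37 ± 0.13) and Mir1954 (-0.32 ± 0.17) were lower by less, and Mir143 (0.29 ± 0.13) was the highest. Of 77 small nucleolar and nuclear RNAs 7 were higher and 12 lower, with Snora68 at 135 in the parent and 189 to 233 with a median of 207 in the lines and Snord16a at 959.8 and 486 to 852 with a median of 631. Of 1891 predicted genes 164 were higher and 211 lower, and of 150 olfactory and vomeronasal receptor genes 11 were higher and 28 lower, none of these by 0.5. The predicted gene 2310057J18Rik had 166 in the parent and 30.1 to 96.3 with a median of 69.9 in the lines, a mean difference of -1.60 ± 0.64, and R74862 had 136 and 58.9 to 77.8.

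The 3 groups of lines were then compared with each other by the F test, to ask whether genes away from the parent also depended on the host. Over all genes 167 of 16352 (1.02%) passed at an adjusted p under 0.05 (limma, Benjamini-Hochberg), and among all genes with the 9 lines on one side 39 of 4234 (0.921%) did, a share near that background. Of the 61 genes at least 0.5 from the parent 6 passed, and of the 9 at least 1 away 2 passed, Gsta4 and Slc44a3. The count rests on single lines: it was 32 without GKO-IMM 3 and 1438 without NIMM 4.

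Gsta4 differed from the parent by 2.68 ± 0.18 (SD, n = 3) in NIMM, 3.24 ± 0.23 in IMM and 2.27 ± 0.084 in GKO-IMM lines (adjusted p = 0.00897, limma F test). Slc44a3 had the same order, with 1.85 ± 0.26, 2.64 ± 0.39 and 1.15 ± 0.089 (limma adjusted p = 0.00756). Tinagl1 was highest in IMM lines too (1.65 ± 0.12) and lowest in NIMM lines (1.10 ± 0.10; limma adjusted p = 0.0222). Postn, a matricellular protein, lay lowest in GKO-IMM lines, at -1.49 ± 0.13 against -0.97 ± 0.12 in NIMM and -0.83 ± 0.041 in IMM lines (limma adjusted p = 0.00771). The drug efflux pump Abcc2 and the long non-coding Gm10768, which starts just past the end of Abcc2 in the gene table, were both lowest in IMM lines, and Abcc2 was named after its values were seen. Abcc2 lay at 1.63, 0.85 and 1.70 in NIMM, IMM and GKO-IMM lines (limma adjusted p = 0.0141), and Gm10768 at 1.46, 0.90 and 1.83 (0.0318).

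Adam23, with a smallest difference of -0.49, was lowest in IMM lines (-1.65 ± 0.27) and passed as well (limma adjusted p = 0.0101). The 3 lines of the lowest group did not overlap the others for any of Gsta4, Slc44a3, Postn and Adam23. They are given here because they passed the F test on the same values, which makes such a gap likely. How often it occurs over all genes was not counted. Without GKO-IMM 3 the adjusted p was 0.0533 for Gsta4, 0.0518 for Slc44a3, 0.0522 for Postn, 0.0601 for Tinagl1, 0.0545 for Adam23, 0.0589 for Abcc2 and 0.121 for Gm10768. Tinagl1 also missed the threshold without any of 4 other lines (0.0519 to 0.0765), Adam23 and Abcc2 without any of 2 others (0.0514 to 0.0643), and Gm10768 without any of 6 others (0.0586 to 0.128). Cxcl10 (0.549), Ccl5 (0.365) and Pdgfrb (0.461) did not pass the limma F test, which does not show that the groups are alike for them.

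**Figure D5:**
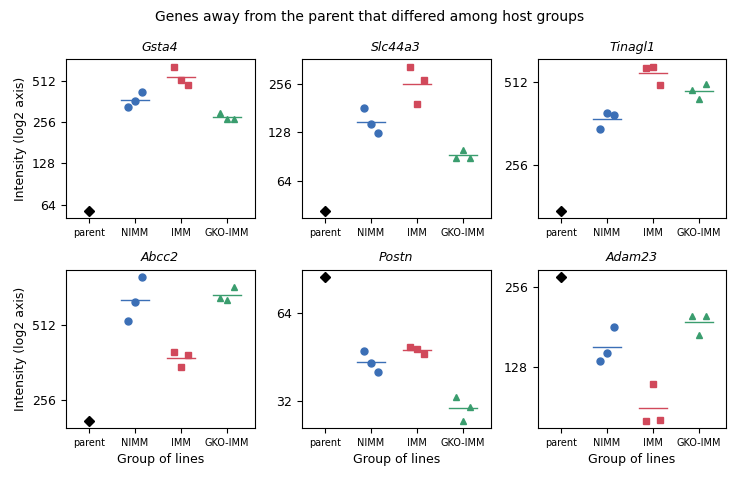
Array intensity (log2 axis) of 6 genes away from the parent that passed the F test among groups, with 1 diamond for the parent, 1 symbol per line and a bar at each group's mean of log2 values. Gsta4 and Slc44a3 are lowest in GKO-IMM lines and highest in IMM lines among the lines, Abcc2 is lowest in IMM lines, Postn lowest in GKO-IMM lines and Adam23 lowest in IMM lines.

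Among other members that passed the F test were genes of the lists. Mcoln3, a lysosomal calcium channel, had 47.6 in the parent and 55.2 to 177 with a median of 91.6 in the lines, with group means of 0.91 in NIMM, 1.57 in IMM and 0.28 in GKO-IMM lines (limma adjusted p = 0.00756, and 0.052 without GKO-IMM 3). Timp1 (0.0118) and Adam12 (0.0468) passed too by their limma adjusted p. Timp1 missed the threshold in 2 of 19 alternative settings. Adam12 missed it in 12 of 20, where its limma adjusted p reached 0.185.

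Markers of host cells were set beside the result as whole lists. For T and NK cells the 13 markers on the array summed to 363 intensity units in the parent and 349 to 360.3 in the lines, and Cd3e and Cd8a lay at 25.3 and 25.4 in the parent, below the filter. Macrophage and dendritic cell markers (16) summed to 575 in the parent and 469 to 509 in the lines, lower in all 9. Most of this fall was held by Cd68, the brightest of them and already named as lower (146 against 47.2 to 78.3). Most other markers of this list were not on one side in all 9 lines, and Ptprc lay at 20.3 in the parent. Endothelial markers (10) summed to 358 in the parent and 382 to 413 in the lines. Of these, Vwf had 43.5 in the parent and 68.8 to 95.0 in the lines, while Egfl7 was at 101, Pecam1 at 33.1 and Cdh5 at 28.8 in the parent. Fibroblast and pericyte markers (14) summed to 496 in the parent and 537 to 584 in the lines, a list that includes Pdgfrb. Of its members Col1a1 was also higher in all 9 lines (42.9 against 43.0 to 48.6) and Col1a2 was lower in all 9 (57.8 against 38.6 to 54.6), while Lum and Dcn lay at 21.3 and 24.4 in the parent. The endothelial and fibroblast sums lay above the parent in all 9 lines. Most of each rise was held by a gene already named as higher, Vwf and Pdgfrb (43.8 against 100.5 to 155). Most other members of both lists were not on one side in all 9 lines. The part of other cells in the result was not tested. The 7 B cell markers summed to 202 in the parent and 197 to 204 in the lines, the 7 neutrophil markers to 209 and 196 to 212, and the 9 muscle markers to 441 and 379 to 433. Melanocyte markers (10) summed to 31906 in the parent and 30949 to 34388 in the lines, and all 10 passed the filter.

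The members were spread over the genome. Of 15773 genes tested with a chromosome in the RefSeq table, the share higher in all 9 lines ran from 9.17% on chromosome 17 to 16.6% on chromosome 3 among chromosomes 1 to 19 and X. The share lower ran from 10.4% on chromosome 12 to 16% on chromosome 19. The median difference of a chromosome's genes lay between -0.0053 and 0.015 for each of these. By this measure no chromosome stood apart from the parent as a whole.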

How the data were processed

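RNA of 10 lines was hybridised to 1 Affymetrix mouse gene array each (annotation na33.2, mm10, per the file headers). The deposited table gives 1 linear intensity per transcript cluster and array. Software, background correction and normalization are each not given in the sources used here, and array medians were already alike. The log2 scale was taken here from the authors' deposited intensities.

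Of 33793 transcript clusters 24732 carried 1 symbol, updated through the RefSeq table of GRCm38.p6 (21334 current, 2240 updated, 1158 not in the table). The brightest cluster stood for each of 23360 genes, and 16352 passed the 30th percentile of the equally weighted mean of the parent and the line mean (intensity 26.6). Each line's log2 intensity minus the parent's was taken, with no test because the parent has 1 array. The 3 groups of lines were compared by the limma F test with Benjamini-Hochberg adjustment. On simulated data for that test, with 200 of 16352 genes changed, the test called 83% of changes of 0.5 and 99% of changes of 1, and 3.19% of 188 calls were unchanged genes. The number of arrays limits the precision.

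The members and lists were chosen with earlier results of these data known. Named genes were, by rule, the 15 farthest each way by smallest difference (predicted genes, small RNAs and olfactory receptors apart, with up to 3 of each class), up to 4 per list, 3 on each side of the threshold of 1, up to 5 by the F test, and 20 others. The remaining genes at least 0.5 from the parent were all given. Atf4, Egln1, Epas1, Herpud1, Hif1a, Hk2, Hspa5, Ldha, Mmp14, P4ha1, P4ha2, Pfkl, Pfkp, Pgk1, Plat, Plod2, Pmvk, Srebf2, Tpi1 and Vegfa were added from their lists after their values were seen. Promoters and the microRNA came from RefSeq tables, and 12170 of the genes tested had a promoter there. Alternatives changed the normalization, filter, scale, threshold, cluster rule, prior, weights and block, or left out 1 line. Python 3.11.15, numpy 2.4.6, pandas 2.3.3, matplotlib 3.10.9, R 4.3.3 and limma 3.58.1 were used. Some results are not reported here.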

Additional observations from a re-analysis of the deposited data

Results flagged for a closer look

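Over the 9 lines, a line apart from the other 8 was looked for in 60 results, and 6 were found, where chance gives about 1 in 20. The value in each case is the gap to the nearest line divided by the whole range. Spp1 in IMM 1 (0.495) lay 2.51 log2 units above the parent, against 1.70 in the next line. Uchl1 in IMM 1 (0.506) lay at -1.67 against -1.10. Clec2i in IMM 2 (0.522) and Axl in IMM 8 (0.501) were the lowest lines. Irf1, a transcription factor of the interferon response, lay 0.67 above the parent in IMM 2 (0.603), against 0.24 in the next line. Dct in IMM 1 (0.513) was the highest line.

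The 3 groups differed by the limma F test for Slc44a3 (adjusted p = 0.00756), Postn (0.00771), Gsta4 (0.00897), Adam23 (0.0101) and Tinagl1 (0.0222). For Mlana, a melanosome protein, all GKO-IMM lines lay above and all NIMM lines below the parent, with group means 0.0883 apart. For Cd44, a hyaluronan receptor, all IMM lines lay above and all GKO-IMM lines below, with group means 0.242 apart. Neither of these last 2 genes passed the limma F test at an adjusted p under 0.05 (0.494 for Mlana). Their sides of the parent have no test.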

How the results depend on the processing

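The counts at 1 (5 higher, 4 lower) were 16 and 7 with 15 subtracted before log2, 1 and 1 with 48 added, 44 and 17 at a threshold of 0.5, 1 and 0 at 1.5, and 36 and 12 by the mean difference. At 0.5 they were 79 and 30 with 15 subtracted and 18 and 9 with 48 added. Leaving out 1 line gave 5 to 7 higher and 4 to 6 lower genes at 1, 44 to 51 and 17 to 22 at 0.5, and 2201 to 2410 and 2173 to 2401 on one side. Such counts need every line, so leaving 1 out could only keep or raise them. The count that passed the F test was 101 with no filter, 98 with 15 subtracted, 100 with 48 added, 1426 with array weights, and 32 to 1438 with 1 line left out. The cause of these differences was not tested. With the line number as a replicate block it was 927, but the numbers do not pair the lines: deviations of same-numbered lines correlated at -0.137 to 0.121 (5 pairs), and those of other pairs at -0.115 to 0.149 (22 pairs). Of 170 list medians under alternatives 166 and of 847 gene differences 807 moved by less than the spread between lines. A reversal was counted only for genes with all 9 lines on one side and for list medians larger than that spread, and 0 were found. For such genes most alternatives could not change the sign. Near 0 signs did change, as for the mean difference of Tyrp1 (-0.014 to 0.0045) and the pigment list median (-0.027 to 0.0094).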

Other observations

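Gene families picked after their values were seen, and so described with no test, are given beside the 13% of all genes that were higher and the 12.9% that were lower in all 9 lines. Of 8 β-tubulin genes 6 were lower and 0 higher in all 9 lines (median of mean differences -0.36), and of 4 α-tubulin genes 3 were lower. Of 5 clade B serpins 3 were lower and 0 higher. Of 10 collagen prolyl and lysyl hydroxylases 7 were higher and 1 lower (median 0.25), a family that overlaps the hypoxia list, and of 3 pyruvate dehydrogenase kinases 2 were higher. Gsta4 was alone in its family: of 18 glutathione transferases 1 was higher and 3 lower in all 9 lines. Of 5 glutathione peroxidases 2 were lower and 0 higher.

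Transcript clusters outside the gene counts held few large differences. Of 6756 clusters with no symbol 1 was higher and 2 lower by at least 0.5 in all 9 lines, the higher one by 1.32 at the smallest. Of 2305 with several symbols 1 was higher and 0 lower by at least 0.5.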
